A study of Homo sapiens with 2 samples.

Results

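The SurePrint G3 human expression array carries 300 probes that were each printed on 10 spots, and these probes are described here in both substates of H9 human embryonic stem cells. They were found by counting how often each probe name occurred among the spots that were not controls. They made up 300 of 58201 probes (0.515%) and 3000 of 60901 spots (4.93%). The other 57901 probes had 1 spot each. The choice rested on the print layout and on no signal of these 2 arrays, so it did not fix the differences of the members. Why these probes were printed 10 times is not known here, and their levels need not be typical of other probes.

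H9 is an established line of human pluripotent cells. Per the labels, the substate 1 cells were at passage 35 and the substate 2 cells at passage 50. The labels also place both on Matrigel, a basement membrane extract, in the serum-free medium TeSR-E8. The study had grown H9 cells on vitronectin before and put them on Matrigel at passage 35. The study told substate 1 from substate 2 by how colonies looked and by antibody staining of vimentin and of a keratan sulphate epitope, and asked which transcripts differ between them. Total RNA of each substate was labelled with Cy3 and hybridised to 1 array. The substates could therefore not be tested against each other, and p-values are absent. Passage, time since the move to Matrigel and substate cannot be told apart. The arrays shared a slide and a scan and differed in their position on the slide. Of the pluripotency markers listed, 7 of 7 with a named probe were measured on both arrays, among them POU5F1, NANOG and SOX2, whereas 0 of 5 mesendoderm markers of the same short marker panel were measured on either. In whole-culture RNA, fewer cells of a type and less RNA per cell cannot be told apart.

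A probe on such an array is a short synthetic DNA strand that captures labelled RNA of its gene, and a scanner reads the brightness of the spot. Repeated spots of a probe share the RNA, the labelling and the hybridisation, so their spread shows how evenly an array was printed, hybridised and scanned. It holds nothing of the spread between cultures. The genes behind the members cover many roles, among them catalase, which breaks down hydrogen peroxide, and E-cadherin, which joins epithelial and pluripotent cells to their neighbours.

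Of the 300 members, 295 had a gene name, each a different gene, on 23 chromosomes. Upstream sequences were held for 231 of them, and those of CAT and PTX3 are shown because these genes had the lowest and the highest difference among the members measured on both arrays. They are the 250 bases before the RefSeq start on GRCh38.p14, plus strand, at chr11:34438684-34438933 for CAT and chr3:157436600-157436849 for PTX3. Capitals mark CCAAT or its reverse complement ATTGG.

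CAT promoter: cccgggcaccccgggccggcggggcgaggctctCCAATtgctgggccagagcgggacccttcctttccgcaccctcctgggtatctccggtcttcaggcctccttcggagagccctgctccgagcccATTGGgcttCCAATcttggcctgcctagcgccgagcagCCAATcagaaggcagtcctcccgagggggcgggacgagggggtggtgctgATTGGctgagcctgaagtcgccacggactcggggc

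PTX3 promoter: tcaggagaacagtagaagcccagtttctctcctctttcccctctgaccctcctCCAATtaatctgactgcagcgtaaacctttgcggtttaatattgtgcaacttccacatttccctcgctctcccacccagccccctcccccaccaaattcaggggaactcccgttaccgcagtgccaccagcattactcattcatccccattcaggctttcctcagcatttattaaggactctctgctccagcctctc

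The CAT stretch held 5 such motifs, which began 217, 123, 114, 85 and 35 bases before the start, and the PTX3 stretch held 1, at 197 bases. The GC content was 68.8% for CAT and 51.6% for PTX3. The first motif searched was the E-box, CAGGTG or CACCTG, which occurred 0 times in either stretch. The CCAAT box was chosen after the sequences had been seen, so 2 motifs were searched and only the second is marked. The CCAAT box was in 32.0% of 35116 promoters and in 96 of 231 members (41.6%), and 5 or more copies were in 0.319% of promoters. The E-box was in 17.5% of promoters and in 43 of 231 members (18.6%). Members with a CCAAT box had a median difference of 0.13 and those without one 0.14, against 0.12 and 0.13 with and without an E-box. A match describes these letters only.

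All values are log2 of the processed spot signal minus the log2 of the array's 75th percentile, a signal of 313.7 for substate 1 and 275.4 for substate 2. A member counted as measured where more than 50% of its used spots were well above background. By this rule 291 members (97.0%) were measured on both arrays, against 51.1% of the probes printed once. LOX, a collagen cross-linking enzyme, and LRRC38 were measured on the substate 1 array alone, and none was measured on the substate 2 array alone. The differences, substate 2 minus substate 1, were 0.040 for LOX and -0.15 for LRRC38. These calls therefore do not by themselves show a loss in substate 2. The 7 members measured on neither array were A2M, WFDC1, CD69, FOXA1, APOB, MMP1 and KLK11. FOXA1 and APOB are known for their roles in endoderm and liver, and MMP1 is a collagenase. No spot was saturated.

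With spots that the scanner software marked as outliers left out, the spots of a member lay close together. Among the 291 measured members the median SD between spots was 0.046 on the substate 1 array (range 0.015 to 0.304) and 0.052 on the substate 2 array (range 0.017 to 0.378). The SD was larger on the substate 2 array for 182 members (62.5%). The steadiest probes were those of ERBB2, a receptor tyrosine kinase, TADA3, OAZ2, LAMTOR5 and SHC1. ERBB2 spots ran from 4.97 to 5.01 (median 4.99) for substate 1 and from 5.10 to 5.16 (median 5.13) for substate 2. The spots of this probe therefore did not overlap although the difference was 0.13 ± 0.0075 (SE between spots), a direction that turned to -0.0020 after quantile normalisation and -0.019 after loess centring. The widest spread belonged to TNFRSF11B, ACSS1, PLA2G4A, SERPINC1 and the unnamed probe A_23_P115261, all of them dim.

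The spread depended on brightness. For the 12 members with a signal under 30 the median SD was 0.396 and 0.337 on the substate 1 and substate 2 arrays. It was 0.083 and 0.090 for the 8 members from 100 to 300, and 0.035 and 0.037 for the 42 members at 10000 or more. Pairs were formed from the used spots of a member on the same array, without the spots marked as outliers. Among measured members, 0 of 12508 pairs on the substate 1 array differed by 2-fold or more. On the substate 2 array it was 1 of 12263 pairs. For members not measured on both arrays this occurred in 87 of 378 pairs (23.0%) and in 48 of 362 pairs (13.3%). A 2-fold gap between used single spots of the same RNA was thus rare for measured members and common for the dim ones. Gaps to spots marked as outliers are not counted here.

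Part of the spread followed the position on the array before the scanner software corrected it. In the background-subtracted signal, before spatial detrending, the deviations of 2769 spots from their member's mean correlated between the arrays with r = 0.809, and after detrending with r = 0.216. These spots share their print positions and the slide, so the correlation is a description. In 16 blocks of each array the mean deviation ran from -0.15 to 0.17 and from -0.26 to 0.20 before detrending, and from -0.025 to 0.028 and -0.041 to 0.036 after it. The median coefficient of variation was 9.9% and 11% before detrending and 3.2% and 3.6% after it. Whether the software fitted its correction on these same spots was not tested. The error that the software itself gives each spot had a median of 10% on both arrays and exceeded the observed coefficient of variation for 288 and 290 of the 291 members. All 71 and 101 spots marked as outliers on the substate 1 and substate 2 arrays were spots of these members, in 51 and 70 members, and at least 7 spots remained for each. The marks include a flag that sets a spot against the other spots of its probe. A probe printed once cannot get that flag, so this result was at least partly fixed by the print layout.

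With 10 spots the SE of a difference was small, with a median of 0.023. For 186 of the 291 measured members (63.9%) the spots of the arrays did not overlap, 131 of them (45.0%) higher and 55 (18.9%) lower in substate 2. Since no other probe had several spots, these shares are also the background. The smallest such difference was 1.06-fold, and the largest difference with overlapping spots was 1.88-fold. The split depended on the scaling, with 149 higher and 48 lower after centring on the median, 91 and 70 after quantile normalisation, and 85 and 75 after loess centring. After normexp background correction, which started from signals before detrending, it was 27 and 12. Spots that do not overlap show that the 2 arrays gave different brightness for a probe under the processing used. They do not show that the substates differ beyond the spread between cultures.

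Few members differed by much. The median difference, substate 2 minus substate 1, was 0.13 (interquartile range -0.077 to 0.30), with 194 members above 0 and 97 below. Members 2-fold or more higher numbered 3 of 291 (1.03%), against 0.85% of all probes measured on both arrays, and 3 (1.03%) were lower, against 1.26%. At 1.5-fold, 10 members (3.44%) were higher, against 4.68%, and 7 (2.41%) were lower, against 6.37%. The study's Z-score places each difference in the spread of all probes, with limits that lay at 2.53-fold higher and 2.29-fold lower. Past these limits were 2 members higher (PTX3 and A2M) and 2 lower (CDH1 and CAT), against 3.03% and 3.3% of all probes, or 6.33% in both directions together. Among members measured on both arrays 3 of 291 (1.03%) were past either limit, against 0.977% of all such probes. The shares at 2-fold and past either Z-score limit among measured members were near the background, whereas those at 1.5-fold and past the Z-score limits among all 300 members were below it. Most of the background is probes with 1 spot, which were dimmer. Among probes measured on both arrays, their median in substate 1 was -0.13, against 2.90 for the members. In the range of signal that held 261 of the members, the differences of the members had an SD of 0.302. It was 0.334 for the 15619 probes printed once in that range. There 4 of the 261 members (1.53%) differed by 2-fold or more, against 0.92% of the probes printed once. The variance between spots came to 0.707% of the variance of the differences among members, and would be 6.35% with 1 spot each.

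Catalase had the lowest difference. The CAT spots (probe A_23_P105138) ran from -0.73 to -0.53 (median -0.61) on the substate 1 array and from -3.49 to -2.98 (median -3.11) on the substate 2 array. The ranges lay far apart, with all 9 used spots well above background on each array. The difference was -2.53 ± 0.059 (SE between 9 and 9 spots), or 5.78-fold lower in substate 2, with a Z-score of -4.11. After normexp background correction it was -1.29.

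CDH1, the gene of E-cadherin, came next. Its spots (probe A_23_P206359) ran from 4.85 to 5.00 (median 4.91) in substate 1 and from 3.32 to 3.52 (median 3.46) in substate 2. All 10 spots of substate 2 were dimmer than all 10 of substate 1, and the difference was -1.47 ± 0.025, or 2.78-fold lower. ESRP2, a splicing regulator of epithelial cells, was the only other member on the epithelial list. Its spots ran from 3.29 to 3.45 (median 3.37) and from 2.63 to 2.71 (median 2.66), which did not overlap, and the difference was -0.71 ± 0.019, or 1.63-fold lower. Both epithelial members were therefore lower in substate 2, against a median of 0.13 over all measured members.

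The other members 1.5-fold or more lower belong to signalling, adhesion and stress. INHBA, which encodes a subunit of activin A, had spots from -2.23 to -1.95 (median -2.09) in substate 1 and from -3.36 to -2.73 (median -3.09) in substate 2. The spots did not overlap, and the difference of -1.0 ± 0.067 sat at the 2-fold limit. With normexp background correction it was -0.36. The adhesion receptor ICAM1 differed by -0.72, the ephrin ligand EFNA1 by -0.65 and DDIT4, an inhibitor of growth signalling through mTORC1, by -0.62, all with spots that did not overlap. After normexp background correction ICAM1 was at -0.57 and EFNA1 at -0.29, both under 1.5-fold, and DDIT4 was at -0.64. Next in order were ACSS1, a mitochondrial acetyl-CoA synthetase, at -0.55 and at -0.094 after normexp background correction, the lysosomal enzyme FUCA1 at -0.51 and COL1A2, a chain of type I collagen, at -0.50.

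Among the higher members, PTX3, a secreted pattern recognition protein, led. Its spots (probe A_23_P121064) ran from -0.52 to -0.15 (median -0.24) in substate 1 and from 1.11 to 1.32 (median 1.24) in substate 2. No spot of one array came near those of the other, and the difference was 1.51 ± 0.042, or 2.86-fold higher. GSTM3, a glutathione transferase, had spots from 1.30 to 1.49 (median 1.42) and from 2.42 to 2.58 (median 2.49), a difference of 1.07 ± 0.024. PLAT, the tissue plasminogen activator, had spots from 0.15 to 0.38 (median 0.28) and from 1.21 to 1.43 (median 1.34), a difference of 1.04 ± 0.032. The spots of both genes lay apart, at 2.10-fold and 2.05-fold higher in substate 2.

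TNFRSF11B, the decoy receptor osteoprotegerin, was dim. Its spots ran from -4.39 to -3.58 (median -3.80) and from -3.60 to -2.29 (median -3.02). The ranges touched, so its difference of 0.91 ± 0.168 was the largest with overlapping spots, and it was 0.36 after normexp background correction. The myelin protein gene PMP22 differed by 0.63, the G protein subunit gene GNG11 by 0.62, the transcriptional cofactor LMO2 by 0.61 and the RNA helicase DDX28 by 0.60, all with spots that did not overlap. After normexp background correction these were 0.51, 0.51, 0.47 and 0.50, all under 1.5-fold. The unnamed probe A_23_P115261 differed by 0.59 with overlapping spots, and by 0.29 after normexp background correction.

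A2M passed the Z-score limit without being measured. None of its spots was well above background on either array. They ran from -6.54 to -4.47 (median -6.35) and from -4.95 to -3.91 (median -4.53), which overlapped, and the Z-score was 2.20. No fold is given for it. WFDC1 had spots that did not overlap, with 0 of 10 and 4 of 10 spots well above background, and it was not measured on either array by the rule above.

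The functional groups are read against all 291 measured members, of which 194 (66.7%) were above 0 and 131 (45.0%) lay apart and higher. In the cell cycle and replication group 20 of 23 members were above 0 and 17 had spots that lay apart and higher, with 1 apart and lower, and the median was 0.28. CCND1, a G1 cyclin, differed by 0.52, the replication licensing regulator DTL by 0.48 and GINS2, a subunit of the replicative helicase, by 0.45, whereas CDK1, the mitotic kinase, was at -0.067 with overlapping spots. In protein folding and degradation all 11 members were above 0 and 10 lay apart and higher, with a median of 0.29. The largest were UFC1 at 0.49 and SUMO3 at 0.48, both of ubiquitin-like conjugation, and the proteasome subunit PSMD7 at 0.41, which was 0.25 after loess centring. After loess centring the medians were 0.17 for both groups, with 12 of 23 and 9 of 11 members apart and higher, against 0.032 and 85 of 291 for all measured members. After normexp background correction, 3 of 23 and 2 of 11 lay apart and higher, against 27 of 291.

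The enzymes against oxidants and toxins were split. Of 8 members, 6 lay apart and higher and 1, CAT, apart and lower, against 131 and 55 of 291 for all measured members. The median of the 8 was 0.31. After loess centring 3 lay apart and higher, against 85 of 291 for all measured members, with a median of 0.20. After normexp background correction 2 did, against 27 of 291. Beside GSTM3, the haem-degrading enzyme HMOX1 and the sensor KEAP1 both differed by 0.38, and GSTP1, another glutathione transferase, differed by 0.28, which was 0.065 after quantile normalisation and 0.043 after loess centring. MGST2 was at -0.033 with overlapping spots. Adhesion and matrix genes were also split, with 14 of 16 measured. Of these 14, 4 lay apart and higher and 6 apart and lower, against 131 and 55 of 291 for all measured members.

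Mitochondrial and translation genes lay apart and higher in shares near that of all measured members, 45.0%. Of 21 mitochondrial members 18 were above 0 and 11 lay apart and higher, with a median of 0.21, which was 0.046 after loess centring. Of 17 members in translation and ribosome assembly 15 were above 0 and 9 lay apart and higher, with a median of 0.16. After loess centring the median was 0.038 and 1 lay apart and higher, against 85 of 291 for all measured members. RPL30, the only ribosomal protein, differed by 0.23, which was 0.037 after quantile normalisation and 0.011 after loess centring.

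Reference genes did not move together. GAPDH spots ran from 7.61 to 7.75 (median 7.70) in substate 1 and from 8.07 to 8.21 (median 8.14) in substate 2, a difference of 0.45 ± 0.022 with spots apart. PGK1 at 0.26 also lay apart and higher, B2M at -0.022 and GUSB at -0.12 overlapped, and the transferrin receptor TFRC at -0.22 lay apart and lower. Of the 6 housekeeping members 3 lay apart and higher and 1 apart and lower, shares near the 45.0% and 18.9% of all measured members. The median of the 6 was 0.098. After loess centring GAPDH was at 0.24, PGK1 at 0.091, GUSB at -0.26 and TFRC at -0.36, and B2M turned to 0.020 after median centring.

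The other lists had few members. TERT, the catalytic subunit of telomerase and the only pluripotency member, differed by -0.38, with spots from 2.57 to 2.73 (median 2.64) and from 2.16 to 2.34 (median 2.29) that lay apart. The proliferation list had 4 members, with CCNA2 at 0.28, BIRC5 at 0.34 and GINS2 apart and higher and CDK1 overlapping. After loess centring CCNA2 was at 0.18 and BIRC5 at 0.15. ADM, a hypoxia-induced peptide hormone, differed by -0.36 with spots apart. A longer mesendoderm list, other than the marker panel named at the start, held CXCR4, a chemokine receptor, at -0.15, and the stress list held BAX at 0.010 and HSPA1A at 0.073, all with overlapping spots. BAX and HSPA1A turned to -0.15 and -0.034 after loess centring. COL1A2 was the only mesenchymal member, and no member was on the neural ectoderm list.

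Other probes of the same genes gave a check that the repeated spots cannot give. Among members measured on both arrays, 25 genes had 29 further probes that were also measured on both. The median absolute gap between the difference of a member and that of its other probe was 0.16, and all 29 gaps were within 2-fold. Since these members all differed by less than 1.5-fold, gaps within 2-fold say little. The differences correlated with r = 0.49 over the 29 pairs. The median difference of all probes measured on both arrays was 0.055, and 21 of 29 other probes lay on the same side of it as their member. The other probes had 1 spot each, so their own spot error is unknown and was not set against these gaps. The closest pairs included MSH3, a mismatch repair gene, at 0.082 and 0.094, and UCHL5, a deubiquitinase, at 0.26 and 0.27. The widest gaps were in LARP6, at -0.097 and 0.67, and MCTS1, at 0.29 and -0.48. Most of the other probes were dimmer than their member. As means over both arrays, the other probe lay at -3.55 against 2.69 for LARP6 and at -0.52 against 4.16 for MCTS1. None of the 17 members that differed by 1.5-fold or more had another named probe measured on both arrays.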

How the data were processed

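RNA of each H9 substate was hybridised to 1 single-colour array. The authors deposited scanner files with a spot intensity, which per the file headers came from Feature Extraction 11.5.1.1 (protocol GE1_1105_Oct12) after background subtraction and spatial detrending. They also deposited a matrix of log2 values, which the means computed here matched within 0.01 for 300 of 300 members on both arrays. The array design was annotated on hg19.

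Spots marked as outliers were left out, intensities under 1 would have been set to 1 (0 spots), log2 was taken, the mean over a probe's spots was formed, and the array's 75th percentile over all non-control probes was subtracted. Errors are SDs or SEs between spots of a member and cover neither cells, RNA nor labelling, and the number of arrays limits the precision. Z-scores set each difference against the mean and SD of all probes' differences, with limits of 2 and -2. Probes were named by RefSeq accession without version in a gene table for GRCh38.p14, which matched 295 members. Probe sequences were not used here.

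The members, gene lists and roles were chosen with earlier results of these data known, the roles from gene names. Named members were those past a Z-score limit, the 10 highest and 10 lowest differences, the 5 largest and 5 smallest spot SDs, the 5 brightest, members not measured on both arrays, and list members, 56 in all, some of which are not reported here. Other group examples were chosen after their values were seen. The promoter search used the E-box first and the CCAAT box second, the latter picked after reading the sequences.

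Alternatives were median centring, quantile normalisation, loess centring (span 0.3), normexp (offset 50), other summaries and subsets of spots, the deposited matrix and other Z-score spreads. Normexp used the median spot signal in place of the planned mean signal. Python 3.11.15, numpy 2.4.6, pandas 2.3.3, R 4.3.3 and limma 3.58.1 were used, and scripts were tested on simulated data.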

Additional observations from a re-analysis of the deposited data

How the results depend on the processing

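No paired analysis was possible because there was only 1 array per substate. The median difference of the members, 0.13, was 0.053 after quantile normalisation and 0.032 after loess centring. Members 2-fold or more apart numbered 6, and 3 after loess centring. Past the Z-score limits were 4 members, 12 with an SD from the median absolute deviation, 10 with the Z-score taken over probes measured on both arrays, and 16 after normexp background correction, which held 3 of the 4. A2M was not among them when the log2 of the mean signal, the spots well above background or the even-numbered spots were used. Normexp started from signals before detrending. Under it the median spot SD was 0.154 in place of 0.050, and 39 members in place of 186 had spots that did not overlap. Before detrending, a comparison chosen after seeing the data, the spot SD was 0.152 and the correlation of spot deviations 0.809. Of 664 values of named members, 540 moved by less than their spread. That count includes settings that could hardly move a value, such as the deposited matrix, with 56 of 56. By setting, 25 of 56 stayed within their spread after loess centring, 26 after quantile normalisation and 25 after normexp background correction. Of the 664 values 24 changed sign, in 11 members, and 21 of these were in members with overlapping spots. The other 3 were ERBB2 to -0.0020 after quantile normalisation and -0.019 after loess centring, and COX7C to -0.067 after loess centring. The cause was not tested. Signals under 30 had the widest spot spread and limit the dim members most.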

Other observations

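Signalling and gene regulation held members on both sides, in shares close to those of all 291 measured members, of which 45.0% lay apart and higher and 18.9% apart and lower. Of 28 signalling members 13 lay apart and higher in substate 2 and 5 apart and lower, with a median of 0.12. The Hippo pathway coactivator YAP1 differed by 0.52, the GTPase HRAS by 0.44 and CTNNB1, the gene of beta-catenin, by 0.35 (0.20 after loess centring), whereas LRIG1, an inhibitor of ERBB receptors, differed by -0.39. After loess centring 8 lay apart and higher and 8 apart and lower, against 85 and 75 of 291 for all measured members. Of 27 measured transcription and chromatin members 13 lay apart and higher and 6 apart and lower, with a median of 0.075 that turned to -0.052 after quantile normalisation and -0.058 after loess centring. CBFB, a partner of RUNX factors, differed by 0.52 and SAP30, of a histone deacetylase complex, by 0.46, whereas MYC differed by -0.40.

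The next 3 groups are also read against all 291 measured members, of which 45.0% lay apart and higher and 18.9% apart and lower. Of 12 RNA processing members 8 lay apart and higher and 1 apart and lower. After loess centring 6 lay apart and higher, against 85 of 291 for all measured members. RPP40, of ribonuclease P, differed by 0.42. Of 9 DNA repair members 3 lay apart and higher and 2 apart and lower, near those shares. In the secretory pathway 1 of 11 lay apart and higher and 3 apart and lower, with STT3A, of the oligosaccharyl transferase, at -0.32 and a median of -0.013 that was 0.029 after median centring and -0.12 after loess centring. The chemokine gene CCL2 differed by 0.58 and the cytokine gene MIF by 0.38, which was 0.15 after loess centring. Among the brightest members NDUFS5 differed by 0.29 and COX7C by 0.15, which were 0.073 and -0.067 after loess centring.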
